A study of Drosophila melanogaster with 2 samples.

Results

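The neighbouring genes tara and gish lie on arm 3R of the fly genome, and they are described here by the places where the coactivator Taiman was recovered around them. The genes were selected by the density of binding summits seen there in these same data. The locus was the span of each gene in the Ensembl annotation plus 10 kb on each side, which gave windows of 54679 bp for tara (chr3R:16215651-16270329) and 52317 bp for gish (chr3R:16262452-16314768). The windows overlap and together cover 99118 bp of dm6. The authors' list filtered by irreproducible discovery rate (IDR) has 2567 summits on the 6 main arms, and 14 of them were here, with 60 of 29974 regions in the pooled list, 67 of 29973 in the list of replicate 1 and 46 of 29976 in that of replicate 3. There are 13945 protein-coding genes on the arms, of which these are 2.

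The data are chromatin immunoprecipitation and sequencing (ChIP-seq) with an antibody against GFP. The chromatin came from whole larvae of the third instar at the wandering stage, pooled males and females of unknown age, of a strain that stably expresses tai with GFP fused to its C-terminal end. The only group had 2 biological replicates, numbered 1 and 3, each with its own biosample, and there was no second genotype, stage or tissue. Whole animals were used, so no summit can be assigned to a tissue or cell type, and the read depth behind the lists is unknown. The signal value of a region is the authors' own. Its scale is not stated, and it serves here to rank regions within a list.

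Taiman, encoded by tai, is a coactivator with bHLH and PAS domains that works with the ecdysone receptor, the steroid hormone receptor that drives molting and metamorphosis in insects. tara (taranis, FBgn0040071) encodes a nuclear protein of the SERTA domain family that interacts genetically with the trithorax group, keeps cell fate stable in regenerating wing discs and acts with cyclin A in the control of sleep. gish (gilgamesh, FBgn0250823) encodes a membrane-bound casein kinase 1 of the gamma class, which is known from glial cell migration and from Wingless and Hedgehog signalling. Both are transcribed from the plus strand and have more than 1 promoter. tara (16225651 to 16260329) has 2 transcripts that start at 16225651 and 16242816. gish (16272452 to 16304768) has 16 transcripts, of which 2 start at 16272452, 8 at 16273001, 5 at 16280889 and 1 at 16289294.

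The DNA under 5 of the 14 IDR summits is shown because these are the summit at the internal promoter of tara and 4 of the 5 strongest of the tara window. The sequence is that of the plus strand of dm6 within 100 bp of the summit (the first stops before the TSS), from RefSeq's copy of the assembly, and capitals mark matches on either strand to the 12 motifs that are described further on.
tara internal promoter, summit 16242744 to the base before the TSS: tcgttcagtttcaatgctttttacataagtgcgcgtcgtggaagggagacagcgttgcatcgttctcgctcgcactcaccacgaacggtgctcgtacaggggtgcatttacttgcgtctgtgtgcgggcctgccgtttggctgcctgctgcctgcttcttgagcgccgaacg
tara upstream, summit 16222434: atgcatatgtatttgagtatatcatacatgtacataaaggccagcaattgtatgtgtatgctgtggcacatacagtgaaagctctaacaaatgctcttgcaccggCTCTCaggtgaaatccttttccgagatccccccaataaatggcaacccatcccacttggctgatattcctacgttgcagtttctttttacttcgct
tara first intron, summit 16235746: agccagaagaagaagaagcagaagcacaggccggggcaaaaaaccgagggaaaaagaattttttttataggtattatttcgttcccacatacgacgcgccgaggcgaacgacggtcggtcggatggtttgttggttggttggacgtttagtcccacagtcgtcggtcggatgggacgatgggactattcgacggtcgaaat
tara first intron, summit 16250073: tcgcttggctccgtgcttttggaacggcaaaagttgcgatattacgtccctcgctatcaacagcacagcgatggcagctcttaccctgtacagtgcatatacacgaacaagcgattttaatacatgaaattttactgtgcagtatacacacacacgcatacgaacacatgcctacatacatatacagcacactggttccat
tara upstream, summit 16224520: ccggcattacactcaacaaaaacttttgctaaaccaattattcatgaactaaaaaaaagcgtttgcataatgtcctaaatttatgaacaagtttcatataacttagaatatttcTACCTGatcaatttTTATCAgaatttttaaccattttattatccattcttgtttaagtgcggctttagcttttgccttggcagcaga

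In the IDR list, the label of a dense locus fitted tara better than gish. The tara window held 11 IDR summits, or 2.01 per 10 kb, which was 10.5 times the mean density of the arms. The gish window held 3, or 0.573 per 10 kb, which was 2.99 times that mean. Over the span of gish without the flanks the same 3 summits gave 0.928 per 10 kb. These counts are a description without a test, because density was the reason for the choice. Among protein-coding genes treated in the same way, 12 had as many summits as tara or more (tara included), and 900 had as many as gish or more (gish included), while 27.0% had at least 1. By summits per 10 kb tara ranked 133 and gish 1553. The 10 densest genes were CG12078, CG43389, CG14589, CG17746, CG11267, CG9586, CG13108, CG31668, MICAL-like and muc, at 3.41 to 5.71 per 10 kb. They are short genes whose windows are mostly flanking sequence. Several of these windows overlap, so the same summits are counted for more than 1 gene. The ranks thus count genes and not separate places. The 11 summits of tara spanned 28179 bp, and the arms had 7 places with 11 summits in as short a stretch, at tai, EcR, shn, CG12078, Eip75B, heca and tara itself. In the whole pooled list the genes were more alike, with 31 regions in the tara window and 29 in that of gish. Its regions below the IDR list numbered 20 at tara and 26 at gish. The list of replicate 1 had 35 and 32, and that of replicate 3 had 27 and 19.

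**Figure D1:**
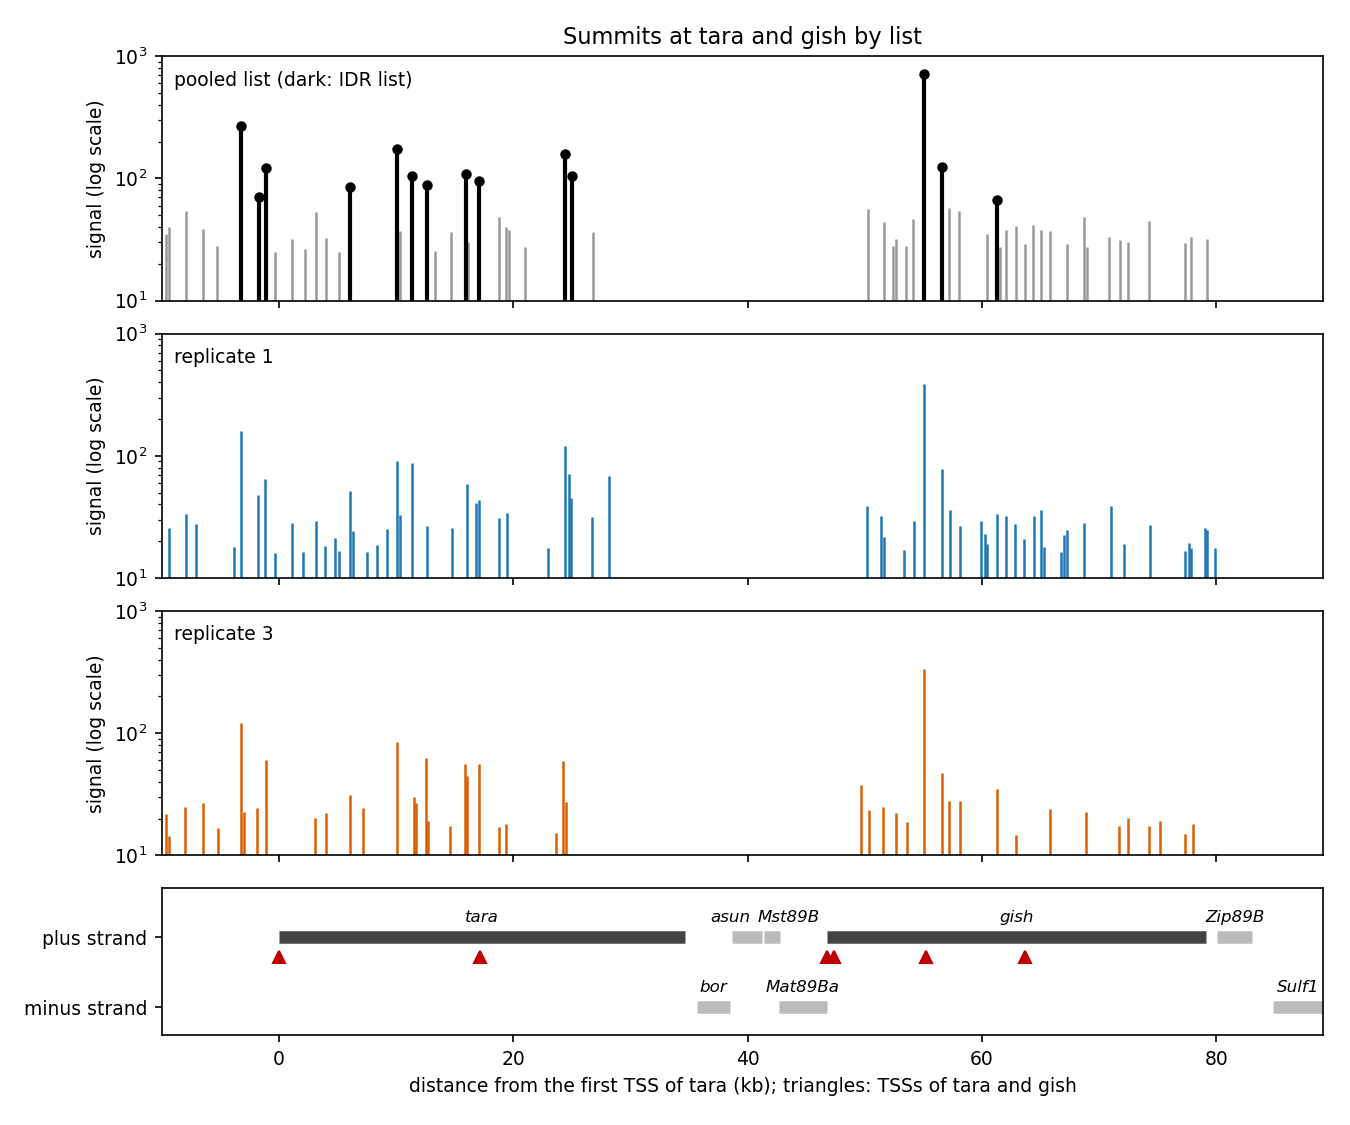
Signal (log scale) of every summit in the pooled list, replicate 1 and replicate 3 against distance from the first TSS of tara in kb, with the protein-coding genes by strand below. Black stems with dots are the 14 IDR summits, 11 at tara and 3 at gish, and no list has a region over the stretch of 21.5 kb that holds the first 2 TSSs of gish.

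The strongest summit of the locus was at an internal promoter of gish. It lay at 16280745 (chr3R:16280523-16280901), 144 bp upstream of the TSS at 16280889 and inside intron 3 of the longer transcripts (16275170 to 16289630). Its signal was 713 in the pooled list, 385 in replicate 1 and 333 in replicate 3, and it ranked 6, 10 and 6 on the arms. The peak was therefore among the strongest of each list, and the summits of the replicates lay 26 bp apart. The other gish summits were far weaker. The second, at 16282201, was in the 5' UTR, 1312 bp downstream of the same TSS, with signals of 124 pooled, 77.5 in replicate 1 and 46.9 in replicate 3. The third, at 16286907, was in intron 3 with a pooled signal of 67.2, close to the lowest value in the IDR list on the arms (65.2), and ranked 4821 in replicate 1 and 1974 in replicate 3. The nearest pooled regions below the IDR list in the locus had signals of 57.1 and 55.7, both also in introns of gish.

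At the other promoters of gish the lists held low-ranked regions or none, and without read coverage this does not show how much DNA was recovered there. The TSSs at 16272452 and 16273001, where 10 of the 16 transcripts start, were 3459 and 2910 bp from the nearest pooled region. That region, at 16275911, ranked 3866 with a signal of 55.7. At the last TSS, 16289294, a pooled region lay 16 bp downstream and ranked 22374 with a signal of 28.9. Replicate 1 had a region 53 bp from that TSS, ranked 16138, and replicate 3 had none within 721 bp.

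At tara the summits were many and of moderate signal, and all but 3 lay in the first intron. The intron of 30338 bp (16226440 to 16256777) held 8 of the 11, and the others lay 1131 to 3217 bp upstream of the first TSS. The strongest was the most distal, at 16222434, with a pooled signal of 270 at rank 113. Its signal was 161 in replicate 1 (rank 146) and 120 in replicate 3 (rank 96). The next upstream summits, at 16223891 and 16224520, had pooled signals of 70.1 and 123. The weaker of these lay 37 bp past the end of lncRNA:CR45643 (16223395 to 16223854). No IDR summit was at the first promoter of tara itself. The pooled list had a region 332 bp upstream of it, with a signal of 24.8 at rank 29968 of 29974, replicate 1 had one at rank 27940, and replicate 3 had none within 1102 bp.

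The internal promoter of tara did have an IDR summit. At 16242744 (chr3R:16242542-16242945) it lay 72 bp upstream of the TSS at 16242816, with signals of 94.9 pooled, 43.3 in replicate 1 and 55.8 in replicate 3. Its rank was 1134 in the pooled list, 2564 in replicate 1 and 602 in replicate 3, and the summits of the replicates were 1 bp apart. A second region of replicate 1 overlapped the same peak, with its summit 384 bp upstream of that TSS and a signal of 41.0 at rank 2886. The peak was thus of middling strength, and the close match of summits holds for the nearest region of each replicate. Both genes therefore had an IDR summit just upstream of 1 internal TSS and none within 500 bp of their other TSSs. The remaining intronic summits of tara had pooled signals of 173 at 16235746, 159 at 16250073, 109 at 16241598, 105 at 16236998, 104 at 16250613, 88.2 at 16238274 and 85.1 at 16231704. Neighbouring summits across the tara cluster were 540 to 7329 bp apart, with a median of 1367 bp, compared with a median of 10352 bp between neighbouring IDR summits of the arms.

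Between the genes, and over the start of gish, none of the lists had a region. The stretch from 16253799 to 16275344 (21545 bp) held no summit of the pooled list or of either replicate. It contains the TSSs of bor, a mitochondrial AAA ATPase gene, asun, which is needed in spermatogenesis, Mst89B, a gene of male-specific transcripts, Mat89Ba, and the first 2 of gish. The gap in the pooled list alone was 23484 bp, and 3.57% of the gaps between neighbouring pooled regions on the arms were as long or longer. The median gap was 1489 bp. At the other end of gish, Zip89B, a zinc transporter gene, had its TSS 913 bp from a pooled region of rank 17874. Replicate 1 had a region 213 bp from that TSS, ranked 23605, and the nearest of replicate 3 lay 2119 bp away. The annotation has 8 protein-coding genes in or reaching into the windows, 1 lncRNA gene and 0 transposable elements.

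Replicates ranked several of the tara summits far apart. How common such differences in rank are over the arms is not given, so they are not said to be particular to tara. Of the 14 IDR peaks, 13 overlapped a region in both replicate lists (92.9%, 95% Clopper-Pearson interval 66.1 to 99.8), beside 95.7% of all arm IDR peaks. The IDR list was derived from these lists, so the shares are descriptions. The exception was 16250613, which replicate 3 lacked. Its nearest region in replicate 1 ranked 2371, and a stronger region of replicate 1 that overlapped the same peak ranked 930. Limited to the 2567 strongest regions of each replicate, 8 of the 14 were found in both (57.1%), beside 50.4% over the arms. Where several replicate regions overlapped a peak, the one with the nearest summit was used. By that rule the summit at 16238274 ranked 8859 in replicate 1 and 462 in replicate 3. In the opposite direction 16236998 ranked 611 in replicate 1 and 3145 in replicate 3, and 16250073 ranked 318 and 4552. For the last, replicate 3 had a stronger region of signal 59.3 that overlapped the same peak, compared with 27.1 for the nearest one. The internal promoter of tara, at 2564 and 602, and the weakest tara summit, 16223891, at 2071 and 6409, also stood apart.

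At 4 other summits of tara the replicates stood closer. At 16235746 the ranks were 578 and 226, and at 16224520 they were 1115 and 503. At 16241598 they were 1324 and 1021, with a stronger overlapping region of replicate 3 at rank 595. At 16231704 they were 1785 and 2907. Across the 13 peaks found in both, Spearman's rho of the replicate signals was 0.32, and across 2456 arm IDR peaks it was 0.42. With the strongest overlapping region taken in place of the nearest, rho was 0.51 in the locus and 0.46 over the arms. With the strongest gish peak left out, rho over the other 12 by the nearest region was 0.13. Peaks share libraries and a control, so these values describe the lists and have no p. Replicate summits were 1 to 152 bp apart, with a median of 26 bp.

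**Figure D2:**
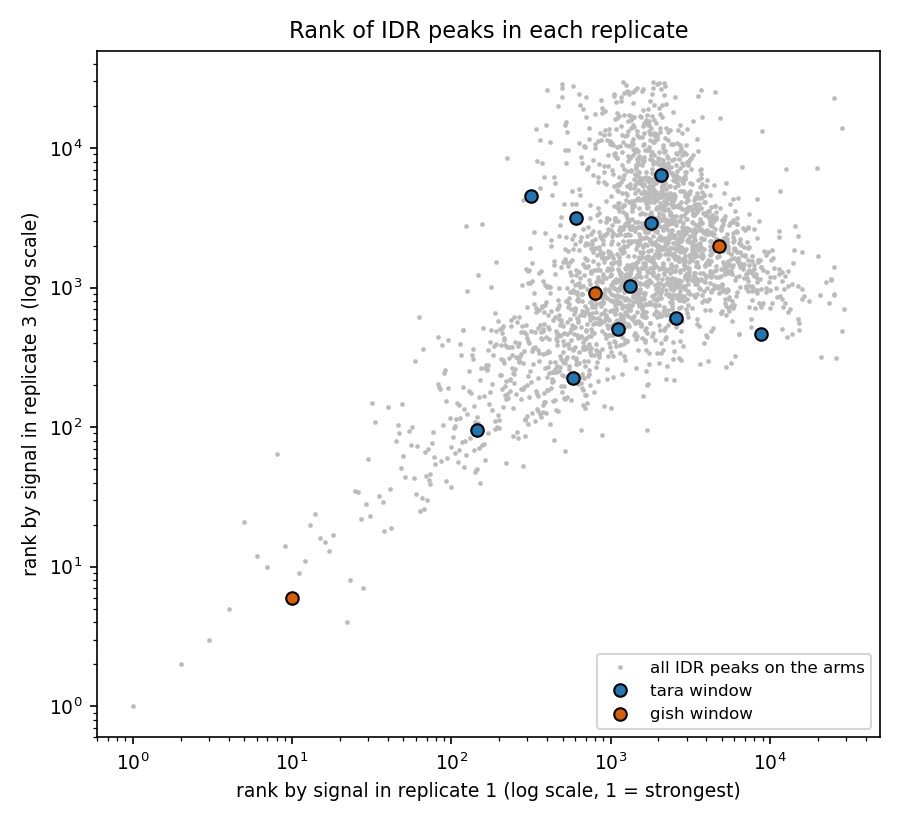
Rank by signal of each IDR peak in replicate 1 and in replicate 3 (log scales, 1 is the strongest) for all arm IDR peaks found in both (gray), the tara window (blue) and the gish window (orange). The strongest gish peak ranks 10 and 6, and the tara peaks spread from ranks 146 and 96 to rank 8859 in replicate 1 and rank 6409 in replicate 3.

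Below the IDR list the pooled list held another 46 regions in the locus, 20 in the tara window and 26 in that of gish. Their signals were 24.8 to 57.1 with a median of 34.9, and 35 of the 46 lay in introns. A region of both replicates overlapped 25 of them, one of replicate 1 alone 14 and one of replicate 3 alone 5. The remaining 2 had none in either replicate. No arm shares are given for these overlaps or for introns in the pooled list. The counts thus do not show whether the locus differs from the arms. Of the 67 regions of replicate 1 in the locus, 38 overlapped one of replicate 3 (56.7%, interval 44.0 to 68.8, beside 54.6% over the arms). Of the 46 of replicate 3, 39 overlapped one of replicate 1 (84.8%, interval 71.1 to 93.7, beside 52.7%). The regions of replicate 3 in the locus were thus mostly found again in replicate 1, whose list was also the denser one here. All such intervals cover counting error only, and neighbouring regions are not independent.

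Position along the genes was not used to choose them, but the windows are by rule 2 gene spans with 10 kb of flank. That rule itself affects the shares in introns and intergenic sequence and the distances to a TSS. Summits over the arms have no such limit, so the values below are descriptions. Of the 14 summits, 2 had a protein-coding TSS within 500 bp (14.3%, interval 1.78 to 42.8), beside 32.8% of all arm IDR summits. With TSSs of all gene biotypes it was 3 of 14 (21.4%), a setting for which no arm share is given. The locus summits were at a median of 2802 bp from a TSS, compared with 1504 bp for the other arm summits. Introns held 10 of the 14 (71.4%, interval 41.9 to 91.6), beside 53.8% over the arms. Intergenic sequence held 3, beside 36.8% over the arms, and the 5' UTR of gish held 1, beside 6.66%. Coding sequence and 3' UTRs held 0, beside 0.545% and 2.26%. The intervals are wide at this number of summits and take in the arm shares for TSSs and introns alike.

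The base composition at the summits varied widely. Within 100 bp, GC content was under 35% at 6 summits (23.9% to 32.8%) and over 40% at 8 (40.8% to 54.7%), with none between, compared with 27.3% of all arm IDR summits that fell between these limits. The limits were set after the values were seen and lie in the gap between them. The internal promoter of tara was the richest in GC, at 54.7% within 100 bp of its summit and 57.0% over the 172 bases printed above. The median was 41.5% in the locus and 34.8% at other arm summits, whose quartiles were 31.3% and 39.3%.

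**Figure D3:**
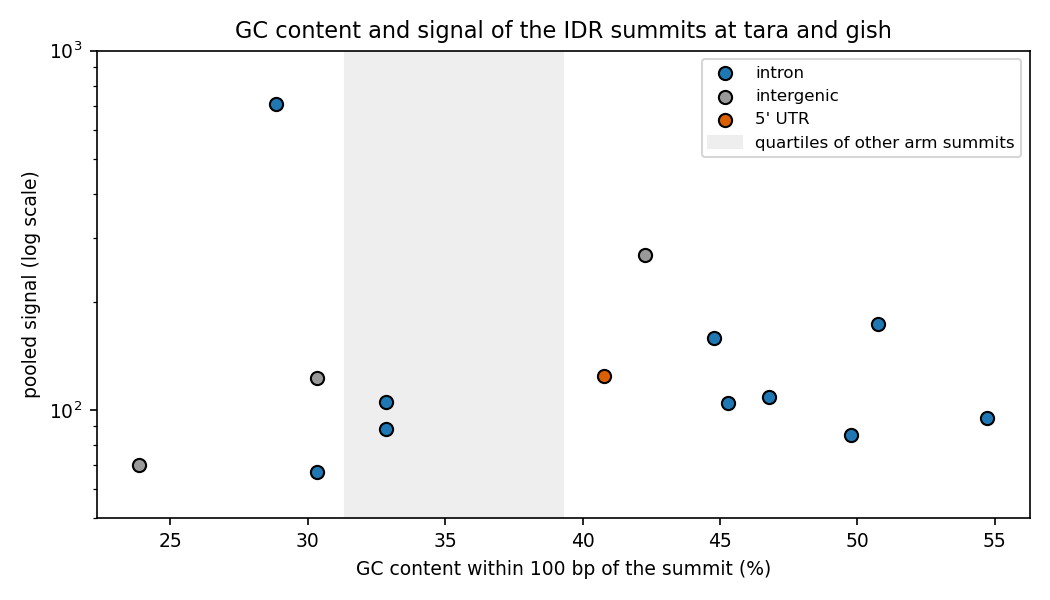
GC content within 100 bp of each of the 14 IDR summits against pooled signal (log scale), colored by annotation, with the quartiles of the other arm summits in gray. No summit lies between 35% and 40% GC, and the internal promoter of tara lies farthest to the right at 54.7%.

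Each of the 12 motifs was searched on both strands within 100 bp of a summit. At least 1 was found at 9 of the 14 summits (64.3%, interval 35.1 to 87.2), beside 59.0% of all arm IDR summits. The repeat bound by GAGA factor (GAGAG) was the most frequent, at 5 of 14 summits (35.7%, interval 12.8 to 64.9). It was at 24.3% of all arm IDR summits and in 9 of 28 windows 1000 bp away from the locus summits (32.1%). GAGAG is the shortest of the 12 motifs and was the most frequent over the arms too, and motif length was not adjusted for. In the strongest regions of single replicates GAGAG was at 21.4% of the locus summits of replicate 1 and 25% of those of replicate 3. The strongest summit of tara had a match 5 bp downstream. The GATA motif TGATAA and the Zelda motif CAGGTA were each at 1 summit, both at 16224520, beside 18.6% and 4.05% over the arms. The forkhead motif TGTTTAC was at 16250613 (6.78% over the arms), the E-box CAGCTG at 16282201 (7.28%) and the Scalloped motif CATTCC at 16286907 (6.43%). Each of these 5 motifs was thus at 7.14% of the locus summits. In the 28 windows 1000 bp away, TGATAA was at 21.4%, CAGCTG at 14.3% and CATTCC at 10.7%, and TGTTTAC and CAGGTA were at 0%. The summit at the internal promoter of tara had none of the 12.

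The other 6 motifs had no match at any of the 14, each with an interval of 0 to 23.2%. They were TATCGATA, the element bound by DREF (2.45% over the arms), GGTCACACT, bound by M1BP (0.857%), the E-box CACGTG (1.68%), CACGCG, to which Taiman binds with juvenile hormone receptors (3.74%), the nuclear receptor half-site AGGTCA (3.58%) and the AP-1 motif TGAGTCA (2.06%). In the 28 windows 1000 bp away, CACGCG and TGAGTCA were each at 7.14%, TATCGATA and AGGTCA at 3.57%, and CACGTG and GGTCACACT at 0%. With shares this low over the arms, 14 summits could not show a lower share. A match or its lack describes these letters in this window and says nothing on which factor was bound.

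Other casein kinase 1 genes were looked at in the same way, by IDR summits in the gene or within 10 kb. Of 6 besides gish, 2 had a summit (33.3%, interval 4.33 to 77.7), beside 27.0% of all protein-coding genes. CkIalpha, which phosphorylates Armadillo and Cubitus interruptus, had 4 with a highest signal of 200. dco, the kinase of the clock protein Period, had 2 with a highest signal of 127. CG2577, CG7094, CG9962 and CG12147 had none. Within the gene spans, without the flanks, lay 1 summit of CkIalpha and 1 of dco. The peak at gish, at 713, was the strongest by signal among the 7 genes.

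Among 15 genes of the Wingless and Hedgehog pathways, in which gish acts, 7 had a summit and 8 had none (46.7%, interval 21.3 to 73.4, which takes in the 27.0% of all protein-coding genes). These were the Wingless receptor genes fz2 (7 summits, highest signal 139) and fz (4, 273), the Hedgehog receptor gene ptc (5, 146), the Wingless co-receptor gene arr (3, 144), sgg, which encodes the glycogen synthase kinase of the pathway (2, 227), and the transcription factor genes pan (2, 103) and ci (1, 65.6). smo, dsh, arm, Axn, Apc, fu, cos and Su(fu) had none. Within the gene spans, without the flanks, lay all summits of fz2, fz, arr and sgg, 1 of ptc and 1 of pan. That of ci lay in the flanks.

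Among 15 trithorax group and cell cycle genes linked to tara, 8 were without a summit and 7 had one (46.7%, interval 21.3 to 73.4, again beside 27.0% of all protein-coding genes). E2f1, a transcription factor of the G1 to S transition, had 11 (highest signal 171), as many as tara, over a window slightly longer. osa, a subunit of the Brahma remodeling complex, had 6 (649), trx, a histone methyltransferase gene, had 5 (230), and Trl, which encodes GAGA factor, had 4 (377). Cdk1, the partner of cyclin A, had 3 (87.2), kis, a chromatin remodeler gene, had 2 (126), and ash1 had 1 (104). CycA, Rca1, Dp, ash2, mor, brm, skd and kto had none. Within the gene spans, without the flanks, lay 6 summits of E2f1, 4 of osa, 2 of trx and all of Trl and kis. Those of Cdk1 and ash1 all lay in the flanks. The windows of the listed genes had a median length of 28331 bp, compared with 22166 bp for all protein-coding genes. A longer window holds more summits by its length alone, and the shares were not adjusted for it.

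**Figure D4:**
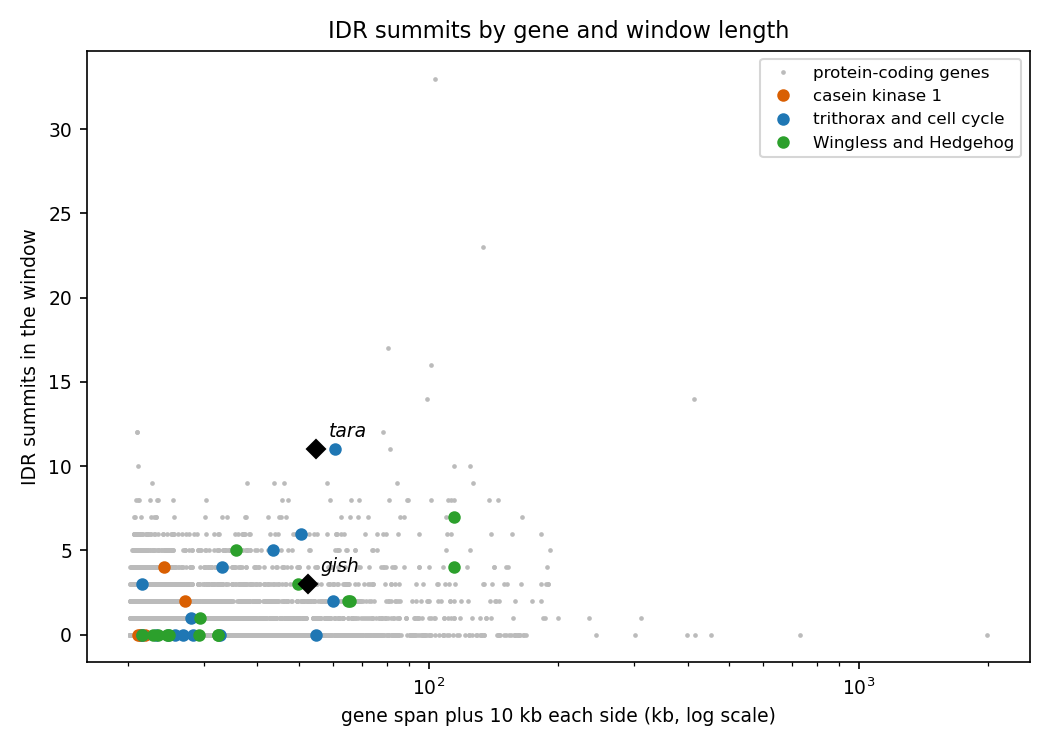
IDR summits in each protein-coding gene's span plus 10 kb each side, against the length of that window (kb, log scale), with the 3 gene lists in color and tara and gish as black diamonds. tara has 11 summits, as has E2f1, and gish has 3.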

How the data were processed

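Per the labels, ChIP-seq against GFP was done on sonicated chromatin of 2 biological replicates of 1 group. The lists are in narrowPeak layout on dm6. The deposited text records describe the lists of single replicates and the pooled one as input for the IDR step (peaks with background), and the labels name the same control experiment for both replicates. The signal values are the authors' deposited ones, on a scale not stated. Aligner and peak caller: not given in the sources used here. Lists on dm3 were not used. The sequence at 1 summit is not reported here.

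Intervals were computed with scipy 1.17.1, tables handled with pandas 2.3.3 and numpy 2.4.6, and plots drawn with matplotlib 3.10.9, all under Python 3.11.15. Ensembl release 115 (BDGP6.54) gave the genes and TSSs, and the RefSeq assembly gave the sequence. Coordinates are 1-based. Regions on the arms 2L, 2R, 3L, 3R, 4 and X were ranked by signal. Overlap meant 1 bp or more. Depth is unknown, so only shares of summits are printed with an interval (95% Clopper-Pearson). For densities, a 95% Poisson interval of the count served only to judge the alternative paddings. With 1 group and genes chosen on density, no test was run. Window counts, TSS distances and the motif search were tested on simulated data. Alternatives changed the padding, threshold, overlap, TSS set, motif window and replicate.

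The members, gene lists and motifs were chosen with earlier results of these data known. Named were tara and gish, protein-coding genes with a TSS in the windows, list members with an IDR summit, the 10 densest genes, the 5 strongest summits of each window, and those within 500 bp of a TSS. List members without a summit, the remaining summits, lncRNA:CR45643, mtSSB, CG31287 and the genes at places with 11 summits in a short stretch were added after their values were seen.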

Additional observations from a re-analysis of the deposited data

How the results depend on the processing

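Of 89 recomputed values, 78 stayed within the interval of the value reported, or within 1.5 times for counts, and 11 moved. The alternatives for Spearman's rho were judged by a fixed difference instead, and both are among those that moved. With the 1000 strongest IDR peaks alone the tara window held 7 summits and both windows 9. With one replicate's 2567 strongest regions in place of the IDR list, the tara window held 8 to 12, that of gish 2 to 4 and both 12 to 14, and the share near a TSS was 14.3% to 16.7%. The density at gish was 0.415 per 10 kb with 20 kb of flank and 0.928 with none, and at tara 1.87 to 2.46 over the paddings. Limiting both replicates to their strongest regions lowered the share of peaks found in both to 57.1%. For GAGAG the share was 71.4% within 200 bp, a window that holds more sequence, 28.6% within 50 bp, and 21.4% to 25% with one replicate alone, compared with 35.7%. Within 50 bp the single match of the E-box CAGCTG, of the forkhead motif and of the Scalloped motif was lost (0% each). With one replicate alone the forkhead motif TGTTTAC was at 0% to 7.14% and the Scalloped motif CATTCC at 0% to 8.33%. Spearman's rho of the replicate signals was 0.51 with the strongest overlapping region taken in place of the nearest, and 0.13 without the strongest gish peak, both chosen after the data were seen. The cause of these shifts was not tested. No paired analysis was possible because there was 1 group. The number of summits, 14, limits every share, and read depth is unknown.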

Other observations

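Dense binding also went on upstream of the tara window. IDR summits lay at 16204074 (signal 66.5, in the coding sequence of CG31287), 16205555 (224), 16207124 (109), 16209920 (74.3) and 16210932 (71.6), which is 4719 to 11577 bp outside the window. The strongest of these 5 was 305 bp from the TSS of mtSSB, the gene of the mitochondrial single-stranded DNA binding protein.

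Single replicates had strong regions in the locus that the pooled list lacked. In replicate 1 a region at 16253799, in the first intron of tara, had a signal of 68.0 at rank 995, with no pooled region within 1372 bp and none of replicate 3 within 3687 bp. In replicate 3 a region at 16275344, in gish, had a signal of 37.9 at rank 1590, and the nearest of replicate 1 lay 537 bp away.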
